A study of Mus musculus with 8 samples.

Results

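G protein-gated inwardly rectifying potassium (GIRK) channels are built from the subunits encoded by Kcnj3 (GIRK1), Kcnj6 (GIRK2), Kcnj9 (GIRK3) and Kcnj5 (GIRK4). These 4 genes were followed in prefrontal cortex (PFC) of a mouse model of Fabry disease. On the array 23638 gene symbols could be tested, and some of these stand for unnamed or intergenic transcripts. The 4 genes were taken by gene symbol from the array annotation, which gives them 5 probes in all. Kcnj6 was chosen on its measured difference between the genotypes compared here, so its own values are given as a description without a test. The other subunits were taken as its family.

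GIRK channels let potassium leave the cell near the resting potential. A neurotransmitter that binds a receptor coupled to inhibitory G proteins of the Gi/o class frees the beta-gamma dimer of the G protein, which binds the channel and opens it, and the neuron becomes less excitable. Functional channels are tetramers. GIRK2 can form channels with itself or with other subunits, GIRK1 needs a partner to reach the membrane, and GIRK4 is best known from the atrium of the heart. In cortex, channels of GIRK1 with GIRK2 are regarded as the usual neuronal form.

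The mice were 4 male α-Gal A(-/0) mice, which lack a working copy of the X-linked gene Gla for the lysosomal enzyme α-galactosidase A, and 4 male wildtype mice. Both genotypes are labelled as strain C57BL/6J, were 20 to 24 weeks old and, as far as the labels say, received nothing but isoflurane anesthesia before death. Per the study's methods the genotypes came from separate inbred colonies, so genotype and colony cannot be told apart in these arrays, for Kcnj6 as for every other gene. To control for colony, the study ran RT-qPCR on α-Gal A(-/0) mice that had been backcrossed to wildtype, and those measurements were not analysed here. RNA of each mouse was hybridized to 1 array of a one-color Agilent design, with the 8 arrays sharing 1 slide and 1 scan. A value below is the log2 of a probe's brightness after quantile normalization across the arrays, in arbitrary units, and a difference is α-Gal A(-/0) minus wildtype on that scale. Levels are not compared between probes, since each probe has its own brightness. In a piece of tissue, fewer cells of a type and less RNA per cell cannot be told apart.

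Per array, between 29943 and 38240 probes were well above background, with the lowest number in α-Gal A(-/0) replicate 2. Gla itself ranged from 17.13 to 17.18 in α-Gal A(-/0) mice and from 17.01 to 17.17 in wildtype mice (difference 0.06, adjusted p = 0.707 by limma), so this probe does not tell the genotypes apart and gives no check of the labels. Whether it lies in the altered stretch of the gene was not examined here. All 7 markers of astrocytes, 7 of microglia, 8 of excitatory neurons and 8 of inhibitory neurons were well above background on every array. With the criterion used throughout, an adjusted p under 0.05, limma called 304 of 34339 tested probes (0.885%), of which 199 (0.58%) were lower in α-Gal A(-/0) mice.

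The probe sequences decide which transcripts are seen, and the Kcnj6 probe carries the finding, so it is printed whole with that of the brighter Kcnj3 probe for comparison. Both are 60 bases long and are given in the 5′ to 3′ direction as the array design holds them, on the mm9 build.
Kcnj6 probe A_52_P191086, chr16:95053973-95054032, minus strand: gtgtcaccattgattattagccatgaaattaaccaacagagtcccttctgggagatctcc
Kcnj3 probe A_55_P2159685, chr2:55290214-55290273, plus strand: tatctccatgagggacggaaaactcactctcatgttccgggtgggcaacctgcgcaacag
The Kcnj6 probe starts at base 1353 of the transcript to which it was assigned, and 1 of its 3 forward reading frames has no stop codon. The array annotation ties it to 2 of the 4 RefSeq messenger RNAs of Kcnj6. Among the other 55680 probe sequences of the array, the longest run of bases shared with it was 14.

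The remaining probes are shown by their last 30 bases, to let a reader see which end of each gene was measured.
Kcnj3 probe A_52_P560006, chr2:55447862-55447921, plus strand: atctgagaggtctatcctagcctggcaaat
Kcnj9 probe A_51_P511285, chr1:174252224-174252283, minus strand: ggccatggagagacttaataaagggtttta
Kcnj5 probe A_55_P2163961, chr9:32122418-32122477, minus strand: tatcgtggtgacctaagtgtgaggggactg
The Kcnj3 probes start at bases 647 and 1604 of the transcript, the Kcnj9 probe at base 2150 and the Kcnj5 probe at base 4386. By the array annotation each Kcnj3 probe is tied to 1 of 3 RefSeq messenger RNAs of its gene. The Kcnj9 probe is tied to 1 of 2 and the Kcnj5 probe to 1 of 1. The Kcnj9 probe holds the letters AATAAA, the usual signal for addition of the poly(A) tail, from base 47. Exon and untranslated region borders of these transcripts on mm9 were not used here.

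Kcnj6 encodes GIRK2, the subunit found in most neuronal GIRK channels. Its signal in the α-Gal A(-/0) mice was 6.65, 6.49, 6.63 and 6.59, and in the wildtype mice 8.36, 8.28, 8.09 and 8.25. Every α-Gal A(-/0) mouse lay below every wildtype mouse, and the gap between the genotypes was far wider than the spread inside either of them. The α-Gal A(-/0) mean was 6.59 ± 0.072 (SD, n = 4) and the wildtype mean 8.25 ± 0.114 (SD, n = 4). The difference was -1.65 (SE 0.073, 95% interval -1.82 to -1.49), a signal 3.15-fold lower in α-Gal A(-/0) mice. Since this contrast chose the gene, the interval is a description and makes no allowance for that choice.

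**Figure D1:**
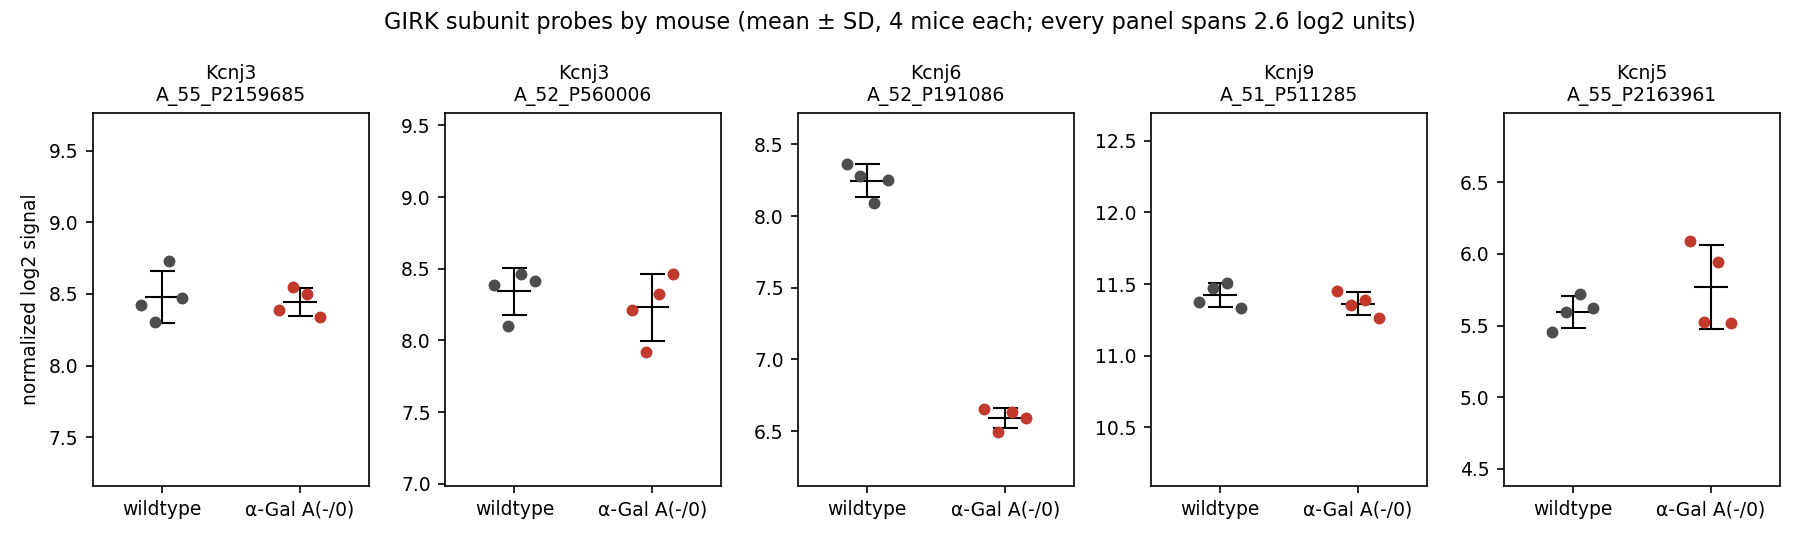
Normalized log2 signal (y axis) of the 5 GIRK subunit probes in each mouse, by genotype (x axis). Points are mice, bars are mean ± SD over 4 mice, and every panel spans the same number of log2 units around its own centre. For Kcnj6 the α-Gal A(-/0) mice lie between 6.49 and 6.65 and the wildtype mice between 8.09 and 8.36, while the genotypes overlap for the other 4 probes.

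The array carries the Kcnj6 probe 10 times, which shows how far the reading of a single mouse varies. Those spots lie between rows 35 and 378 of an array, and so are spread over it. Before any normalization between arrays, the median of the 10 spots was 90.1, 90.5, 89.1 and 90.9 units in the α-Gal A(-/0) mice and 392.9, 290.8, 293.7 and 309.6 units in the wildtype mice. The brightest of the 40 α-Gal A(-/0) spots read 117.2 units and the dimmest of the 40 wildtype spots read 253.3 units. The spots thus do not overlap either, but spots of one array share one RNA and are no replicates of the genotype. Across the 10 spots of an array the SD was 0.062 to 0.207 on the log2 scale, with a median of 0.099.

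**Figure D2:**
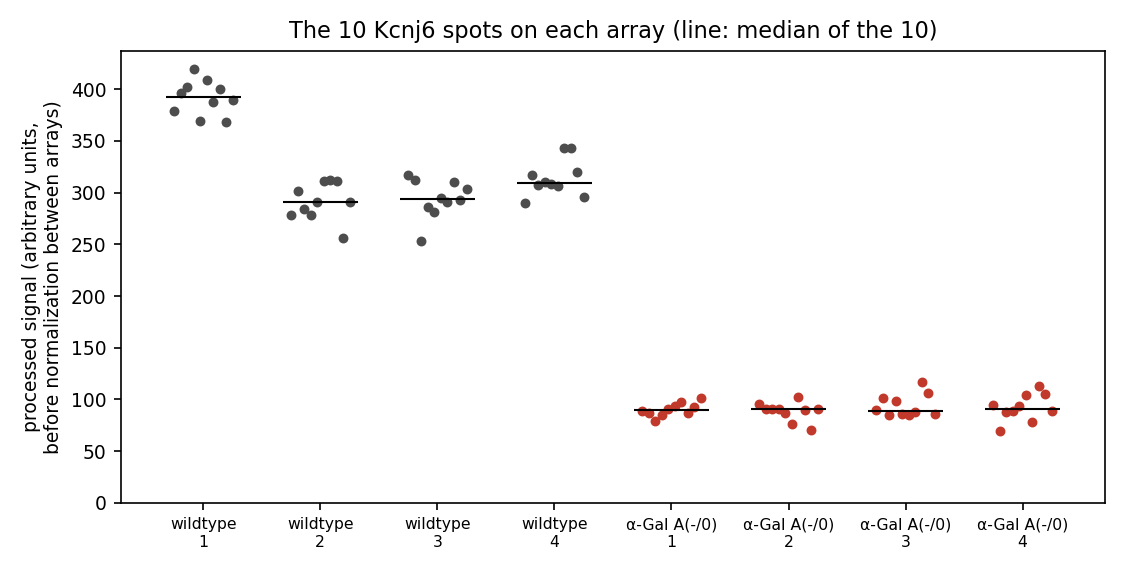
Processed signal (y axis, arbitrary units, starting at 0) of each of the 10 Kcnj6 spots on the 8 arrays (x axis, genotype and replicate), before normalization between arrays. The line is the median of an array's spots, and the 40 α-Gal A(-/0) spots reach 117.2 units at most while the 40 wildtype spots start at 253.3 units.

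All 10 spots were well above background on every array, and none was uneven. The lowest signal of any probe well above background was 17.0 to 43.4 units in the α-Gal A(-/0) arrays and 15.7 to 19.4 units in the wildtype arrays. The averaged Kcnj6 signal stood 2.04-fold above that limit in α-Gal A(-/0) replicate 2 and 4.92 to 5.53-fold above it in the other α-Gal A(-/0) mice. Kcnj6 was therefore dim but measured in α-Gal A(-/0) PFC. Without α-Gal A(-/0) replicate 2 or any other array in turn, the difference stayed between -1.70 and -1.61.

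Position on the slide was balanced only in part, with 1 α-Gal A(-/0) and 3 wildtype arrays in one row and 3 and 1 in the other. Within these rows the Kcnj6 difference was -1.59 and -1.68. Its size depended on the background correction. With a normal-exponential correction and an offset of 50 units in place of the deposited processed signal it was -1.19, in the same direction. That offset is added to every signal before the log2 step.

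Kcnj3 encodes GIRK1, the partner of GIRK2 in the usual cortical channel, and it has 2 probes, both well above background on all arrays. The probe nearer the start of the transcript, A_55_P2159685, read 8.39, 8.55, 8.50 and 8.34 in α-Gal A(-/0) mice and 8.42, 8.30, 8.73 and 8.47 in wildtype mice. The genotypes overlapped, with a wildtype mouse at each end. The difference was -0.04 (SE 0.099, 95% interval -0.27 to 0.19, adjusted p = 0.911 by limma).

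The second Kcnj3 probe, A_52_P560006, read 8.21, 7.92, 8.32 and 8.46 in α-Gal A(-/0) mice and 8.39, 8.10, 8.46 and 8.41 in wildtype mice. Replicate 2 was the lowest of its group in both genotypes, which only share that number. For this probe limma gave -0.11 (SE 0.129, 95% interval -0.41 to 0.18, adjusted p = 0.766). Over the 8 arrays the probes of Kcnj3 had a correlation of r = 0.153 (Spearman's rho 0.19), over a narrow range of values.

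Kcnj9 encodes GIRK3, which joins other subunits and is known to steer channels through endosomes. Its probe read 11.45, 11.35, 11.39 and 11.26 in α-Gal A(-/0) mice and 11.38, 11.47, 11.51 and 11.34 in wildtype mice. The ranges overlapped over most of their width. The difference was -0.06 (SE 0.066, 95% interval -0.21 to 0.09, adjusted p = 0.756 by limma), which is the narrowest interval of the subunit probes tested.

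Kcnj5 encodes GIRK4, the subunit of the atrial channel. Its signal was 6.09, 5.52, 5.94 and 5.52 in α-Gal A(-/0) mice and 5.45, 5.60, 5.72 and 5.62 in wildtype mice. The α-Gal A(-/0) mice included both higher values and values near the lowest wildtype mouse. The probe was well above background in all 4 wildtype mice and in 3 of 4 α-Gal A(-/0) mice, replicate 2 being the exception, and limma gave a difference of 0.17 (SE 0.142, 95% interval -0.16 to 0.50, adjusted p = 0.673). Within the slide rows the Kcnj5 difference was 0.50 and 0.04.

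Of the 5 subunit probes, Kcnj6 alone had genotypes that did not overlap, a pattern shown by 7.95% of all tested probes, and since this contrast chose Kcnj6 nothing is read from that count. None of the other 4 probes was called. Their 95% intervals reach no lower than -0.41 and no higher than 0.50, so a fall of the size of Kcnj6 lies outside each of them, while differences inside these intervals cannot be told from none. This says least for Kcnj5, which read 47.0 to 55.8 units in wildtype mice before normalization. The lowest signal well above background on those arrays was 15.7 to 19.4 units, and such a fall would end near it.

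The cells that could carry the channel were looked at beside these values. None of the 8 excitatory and 8 inhibitory neuron markers was called, and the summed signal of each list overlapped between the genotypes, at 47070 to 54263 against 50148 to 60202 units for excitatory neurons and 111892 to 120097 against 109806 to 115301 units for inhibitory neurons, α-Gal A(-/0) first. All 8 excitatory markers were lower in α-Gal A(-/0) mice, with a median difference of -0.13, while the median of the inhibitory markers was 0.02. Summed astrocyte markers did not overlap, at 42338 to 44177 units in α-Gal A(-/0) and 47095 to 48477 units in wildtype mice, with 0 of 7 called. The same held for microglia, at 67767 to 75120 and 76214 to 86001 units, where 1 of 7 markers was called, the growth factor receptor Csf1r (-0.44, adjusted p = 0.0119 by limma). A sum leans on its brightest probes, such as that of Itgam among the microglia markers, which differed by only -0.04. Median differences were -0.13 for the astrocyte and -0.29 for the microglia markers. The part of these cell types in the Kcnj6 difference was not tested. Markers of midbrain dopamine neurons, in which GIRK2 is abundant, overlapped too, at 5873 to 7544 and 5864 to 7303 units, with En1 not well above background on all arrays.

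The genes that act on the channel were described from 4 lists, with the brightest tested probe for each gene. Of 73 genes, 69 could be tested and 8 had an unadjusted p under 0.05. By limma 0 were called at an adjusted p under 0.05, against 0.935% of all tested gene symbols. The median difference over the lists was -0.03, beside -0.02 over all tested gene symbols. In 4 of the 69 genes (5.8%, against 7.95% of all tested probes) the genotypes did not overlap, a share no higher than over the array as a whole. They were Kcnj16, Sstr3, Gngt2 and the lipid kinase gene Pip5k1c, the last named only for this count.

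**Figure D3:**
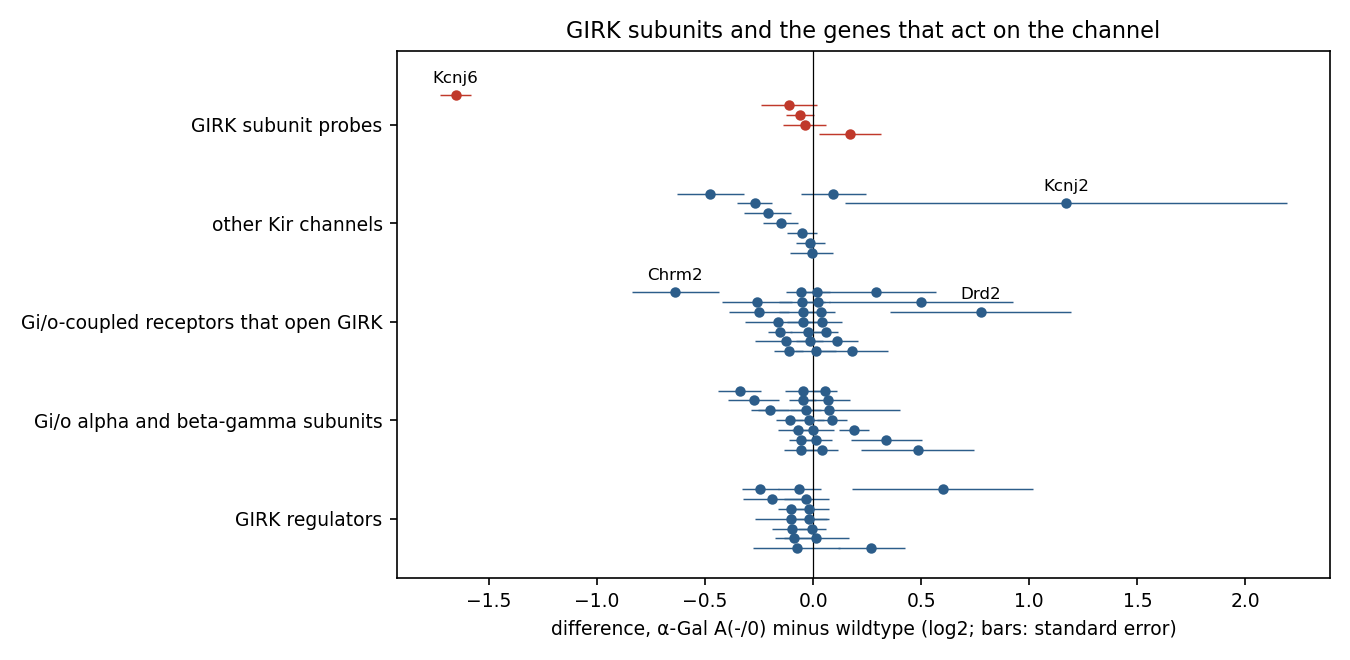
Difference between α-Gal A(-/0) and wildtype mice (x axis, log2) for the GIRK subunit probes and for 69 genes that act on the channel or belong to the same family, by list (y axis). Points are probes, shifted within a list only to keep them apart, and bars are standard errors. Kcnj6 lies at -1.65 and the other subunit probes between -0.11 and 0.17.

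Receptors that open GIRK channels came to 24 tested genes, and none was called (median difference -0.02, range -0.64 to 0.77). The lowest value belonged to Chrm2, the M2 muscarinic receptor that slows the heart through these channels. It read 7.31, 6.81, 7.56 and 6.70 in α-Gal A(-/0) mice and 7.80, 7.81, 7.90 and 7.42 in wildtype mice, and the genotypes overlapped narrowly (difference -0.64, SE 0.202, adjusted p = 0.275 by limma). For the somatostatin receptor Sstr3 the genotypes did not overlap, but the difference was only -0.15 (adjusted p = 0.328). The GABA-B receptor is the main route to GIRK in cortex. Its subunit Gabbr2 gave -0.25 with its brightest probe (adjusted p = 0.526 by limma) and -0.05 and -0.10 with its others. Gabbr1, named for this role only, gave 0.02 with its brightest probe and 0.03 and 0.09 with its others.

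Drd2, the dopamine D2 receptor, read 7.97, 8.33, 8.10 and 6.64 in α-Gal A(-/0) mice and 6.13, 7.51, 7.02 and 7.27 in wildtype mice (difference 0.77, adjusted p = 0.509 by limma). It is a marker of striatum as well, and the summed signal of 9 striatal markers ran from 76471 to 200971 units in α-Gal A(-/0) and from 61534 to 142433 units in wildtype mice. How much of that spread between mice enters the Drd2 values was not tested.

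Sstr1, another somatostatin receptor that acts through Gi/o, has a second probe that behaved unlike the first, and it is described although its values were seen before it was picked. The dimmer probe, A_51_P432950, read 4.74, 4.76, 4.94 and 4.90 in α-Gal A(-/0) mice and 7.18, 6.88, 6.92 and 6.76 in wildtype mice. The genotypes were far apart, as for Kcnj6. It was called, with a difference of -2.10 (SE 0.099, adjusted p = 4.17e-05 by limma), and was well above background in 3 of 4 α-Gal A(-/0) and all wildtype mice.

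The brighter Sstr1 probe, A_66_P100777, read 11.05, 11.14, 11.14 and 11.36 in α-Gal A(-/0) mice and 11.29, 11.03, 11.23 and 11.23 in wildtype mice. Here the genotypes overlapped (difference -0.02, SE 0.086, adjusted p = 0.947 by limma). Both probes are annotated to one transcript on chromosome 12, from 59314287 to 59314346 and from 59316670 to 59316729. A change of the gene as a whole is thus not shown by these values.

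G protein alpha, beta and gamma subunits came to 21 tested genes with 0 called (median difference -0.02). Among these brightest probes the lowest unadjusted p belonged to Gngt2, a gamma subunit best known from cone photoreceptors. It read 9.88, 9.81, 9.83 and 9.94 in α-Gal A(-/0) mice and 10.22, 10.18, 10.45 and 9.96 in wildtype mice. These genotypes did not overlap, and the difference of -0.34 was not called (adjusted p = 0.244 by limma). Gng2, Gnb4 and Gng10, further beta and gamma subunits, gave 0.19, -0.27 and -0.20 with adjusted p from 0.353 to 0.418. The gamma subunit Gng7, named after its values were seen, gave 0.48 with its brightest probe and 0.39 and 0.40 with its others. For the probe at 0.39 the genotypes did not overlap and the unadjusted p was lower than that of Gngt2. None of the Gng7 probes was called (adjusted p from 0.0813 to 0.73 by limma). The alpha subunits Gnao1, Gnai1, Gnai2 and Gnai3, named for their role rather than their p, lay between -0.07 and 0.01.

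Regulators of the channel came to 15 tested genes with 0 called (median difference -0.06). They include RGS proteins, which speed up the closing of GIRK channels, and KCTD proteins, which sit on the GABA-B receptor. Kctd12b gave -0.25 (adjusted p = 0.32), Rgs10 gave -0.10 (adjusted p = 0.551) and the RGS genes Rgs8 and Rgs9 gave 0.27 and 0.60 (adjusted p = 0.538 and 0.615, all by limma). Rgs9 is also one of the 9 striatal markers, whose summed signal varied between mice as given for Drd2 and whose median difference was 0.60, and the part of that variation in Rgs9 was not tested. Snx27, a sorting protein that binds the tail of GIRK subunits and is named for that alone, gave -0.02 with an SE of 0.092.

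Other inwardly rectifying potassium (Kir) channels came to 9 tested genes of 11, again with 0 called (median difference -0.05). Kcnj16 and Kcnj10 encode subunits of the glial Kir channel. Kcnj16 read 11.17, 11.15, 10.97 and 11.06 in α-Gal A(-/0) mice and 11.49, 11.39, 11.18 and 11.37 in wildtype mice. Those genotypes did not overlap, though narrowly, and the difference was -0.27 (adjusted p = 0.252 by limma). Kcnj10 gave -0.15 (adjusted p = 0.505), and beside these values stands the lower summed astrocyte signal given above, whose part in them was not tested.

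Kcnj8, a pore subunit of ATP-sensitive channels in vessels, gave -0.48 (SE 0.154, adjusted p = 0.282 by limma). Kcnj13 gave -0.21 with its brighter and -0.27 with its other probe, and neither was called (adjusted p = 0.491 and 0.161). Kcnj2 had the widest error of the family because α-Gal A(-/0) replicate 2 read 10.19, while the other 7 mice lay between 5.17 and 5.78. Kcnj2 was named for that single value after it was seen.

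Each of 3 GIRK subunit genes has another Kir gene near it, and these pairs were compared. Kcnj10 lies 51.8 kb from the Kcnj9 probe and gave the value above. Kcnj1 lies 84.1 kb from the Kcnj5 probe and was not well above background on any array. Kcnj15 lies 465.4 kb from the Kcnj6 probe, and its probes were above background on 0 and 2 of 8 arrays, so it could not be tested in PFC.

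Probes of other genes within 1 Mb of Kcnj6 on chromosome 16 show whether its neighbours moved in the same direction. Of 33 such probes 20 could be tested, with a median difference of -0.04 and a range from -0.49 to 0.58. Besides a called Pigp probe given below, genotypes did not overlap for a probe each of Sim2 (0.22), Ttc3 (-0.37), LOC102641028 (-0.23) and an unnamed transcript (0.24). These are named only for that, and none of them was called (adjusted p from 0.155 to 0.306 by limma). Over all tested probes 7.95% showed this pattern, a smaller share than among these 20, and the reason was not tested. Since the probes without overlap went in both directions, the small median does not show that the stretch is alike in the genotypes. The nearest tested gene on one side was Dyrk1a, a protein kinase, 140.1 kb away, whose probes gave -0.10 and -0.15 (adjusted p = 0.58 and 0.668 by limma). On the other side the nearest was the transcript NAP071933-1, 270.6 kb away, at -0.04 (adjusted p = 0.799). The lowest of the 20 differences, -0.49, belonged to Erg, a transcription factor gene named only for this value (adjusted p = 0.398), and was well short of that of Kcnj6.

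**Figure D4:**
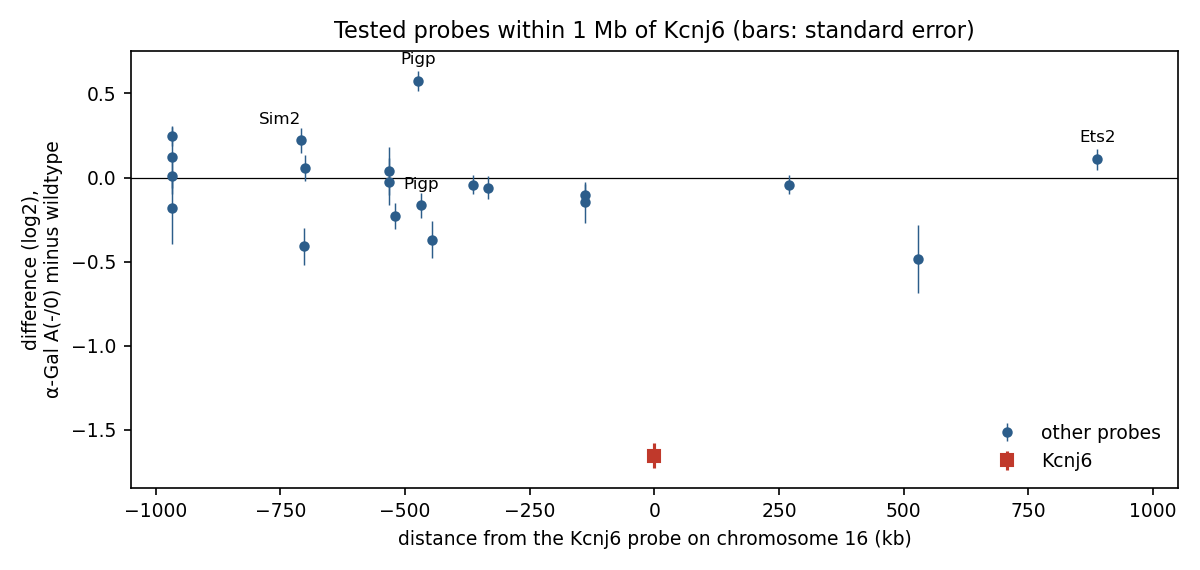
Difference between α-Gal A(-/0) and wildtype mice (y axis, log2) of tested probes by their distance from the Kcnj6 probe (x axis, kb). Bars are standard errors. Kcnj6 lies at -1.65 and the 20 other probes between -0.49 and 0.58, with one called probe, of Pigp, above 0.

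One of the 20 neighbouring probes was called (5%, against 0.885% of all tested probes), and it was higher in α-Gal A(-/0) mice. A single probe is too few to set these shares against each other. Pigp encodes a subunit of the enzyme that starts GPI anchors, and its probe A_55_P2084332 read 7.27, 7.29, 7.22 and 7.36 in α-Gal A(-/0) mice and 6.78, 6.61, 6.70 and 6.75 in wildtype mice (difference 0.58, SE 0.061, adjusted p = 0.00348 by limma). A second, brighter Pigp probe read 12.04, 11.97, 12.20 and 12.08 against 12.22, 12.09, 12.31 and 12.33 and was not called (difference -0.17, adjusted p = 0.44). As for Sstr1, the probes of Pigp thus gave different answers, and they are annotated to different transcripts of the gene.

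**Figure D5:**
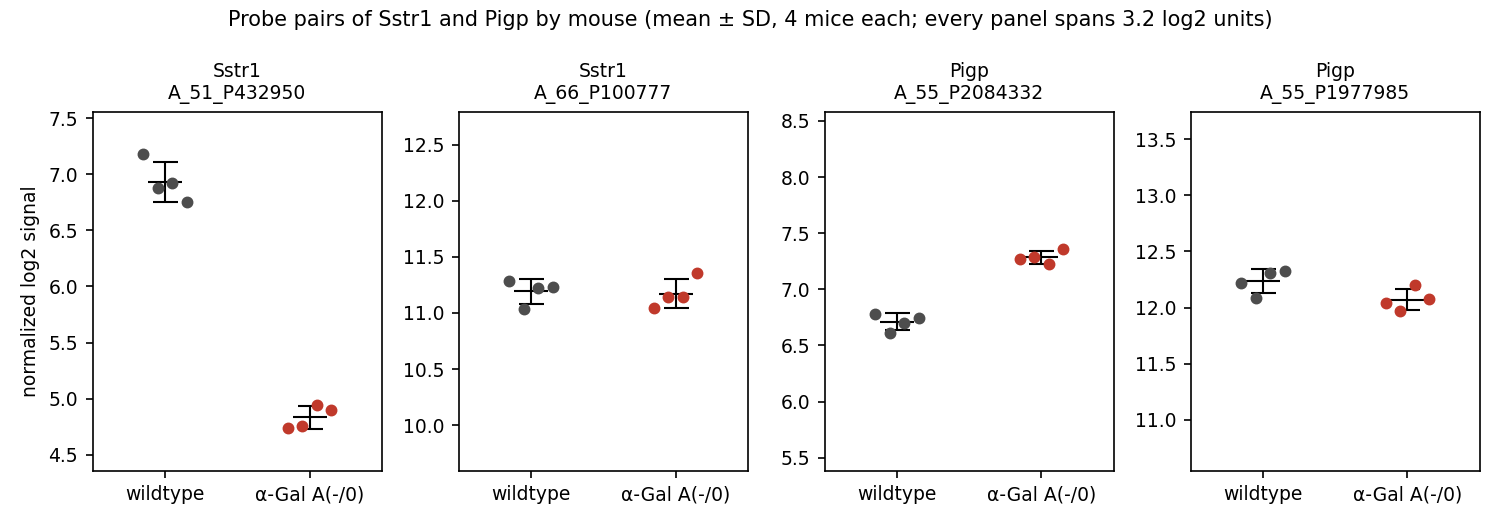
Normalized log2 signal (y axis) of both probes of Sstr1 and both probes of Pigp in each mouse, by genotype (x axis), with mean ± SD over 4 mice. Every panel spans the same number of log2 units. One probe of each gene separates the genotypes (Sstr1 by -2.10, Pigp by 0.58) and the brighter one does not.

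Kcnj6 has only this 1 probe sequence on the array, so the same comparison within the gene cannot be made.

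The genes whose signal followed each subunit most closely over the 8 arrays were listed by Pearson's r, as a description. For Kcnj6 they were Gtf2h4 (r = 0.997), an unnamed transcript of chromosome 4 (r = 0.997), Clmp (r = 0.996) and Gm1987 (r = 0.996), and here r mostly reflects the step between the genotypes, which form separate clusters for Kcnj6. The lists for the other subunits are the top of 34339 tested probes over 8 arrays. An r as high as theirs can arise there by chance, and no chance level was worked out. For Kcnj3 the genes were Mrpl43 (r = 0.951), Mettl23, Vasp and Fam183b. For Kcnj5 they were Bspry (r = 0.957), Mxd1, Morf4l2 and the transcript TC1695806, and for Kcnj9 C2cd3 (r = 0.965), Pitpnc1 and 2 unnamed transcripts. A subunit without that step could not enter the Kcnj6 list, so the absence of the others from it says nothing. Among Kcnj3, Kcnj5 and Kcnj9 probes r ran from -0.141 to 0.434 over the 8 arrays.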

How the data were processed

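Per the file headers, the deposited intensity values are processed signals of Agilent Feature Extraction 10.7.3.1, detrended within each array and not normalized between arrays. Positions are those of the array design (mm9). The value table of the whole series was not used here.

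Spots of a probe were averaged before the log2 step, and quantile normalization brought the 8 arrays to one distribution. Control probes and 81 probes uneven on any array were left out. A probe was tested if it was well above background, in more than 0.5 of its spots, on each array of one genotype or the other (34339 of 55681). Genotypes were compared with limma 3.58.1 (lmFit, eBayes) in R 4.3.3. The p-values are two-sided and adjusted by Benjamini-Hochberg across the tested probes, and those under 0.05 were called. The steps were tested on simulated data. The number of arrays, 1 per mouse, limits the precision.

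Members, gene lists and tests were chosen with earlier results of these data known. Named were all subunit probes, called partner genes and the 4 lowest p per list, the nearest tested and called neighbours of Kcnj6, and the 4 most correlated genes per subunit, and exceptions are marked. Alternatives were a 75th percentile shift, normexp with an offset of 50, other filters, saturated probes left out, the methods' test, trended variances, array weights, replicate and slide row blocks, each array left out, and means over probes. Figures used matplotlib 3.10.9, Python 3.11.15, pandas 2.3.3 and numpy 2.4.6.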

Additional observations from a re-analysis of the deposited data

Results flagged for a closer look

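One measure of array quality stood apart within its genotype. In α-Gal A(-/0) replicate 2, 29943 probes were well above background, while the other α-Gal A(-/0) arrays had 35218, 36086 and 36139. The gap to the nearest array was 0.851 of the range of the 4 values, above the critical value of Dixon's test for 4 values. Of 14 groups of 4 values examined in this way 1 was marked, and chance marks about 1 in 20. This is the array on which the Kcnj5 probe was not well above background and on which Kcnj2 read 10.19. Without this array the Kcnj6 difference was -1.62 and the Kcnj5 difference 0.25, and that of Kcnj3 probe A_52_P560006 went from -0.11 to -0.0094.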

How the results depend on the processing

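The Kcnj6 difference kept its direction under all 18 alternatives, from -1.705 to -1.185. Since this contrast chose Kcnj6, that range is a description and lends the difference no support. Other filters, the methods' test, trended variances and the replicate block cannot move the estimate, and it stayed at -1.654 with each. Only the normexp background correction, at -1.185, moved the Kcnj6 difference by more than the spread between mice. The other 4 subunit probes were called in none of 71 alternative results (adjusted p from 0.275 to 0.999), and 1 of these results changed sign, that of Kcnj3 probe A_55_P2159685, at 0.0439 without wildtype replicate 3. With each array left out in turn, that Kcnj3 probe ranged from -0.0995 to 0.0439, A_52_P560006 from -0.1933 to -0.0094, Kcnj5 from 0.0632 to 0.2547, Kcnj9 from -0.0892 to -0.0266 and Kcnj6 from -1.705 to -1.61. The 304 called probes became 89 with the methods' test, 156 with the replicate block, 149 with the slide row as a block, 492 with array weights, and 189 to 265 with an array left out, lowest without wildtype replicates 1 (202), 3 (189) and 4 (197). The replicate numbers do not pair the mice, as the deviations of same-numbered arrays correlated at -0.089 to 0.148. Taking the mean over all tested probes of a gene, 1 partner gene was called in place of 0, Sstr1. The causes of these shifts were not tested. The Kcnj5 signal was not above background on every array, which limits what can be said of it.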

Other observations

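Since Kcnj6 rests on 1 probe sequence, called probes of genes with more than 1 tested probe were counted, as a description chosen after the values were seen. Of 304 called probes, 101 belonged to a named gene with another tested probe. In 31 of these another probe of the gene was called in the same direction. In the remaining 70 none was, and in 24 of the 101 every other probe of the gene had the opposite sign. Near Kcnj5, for example, the transcription factor Ets1 was called with a difference of 0.67 by one probe and gave -0.42 by another (adjusted p = 0.00153 and 0.244 by limma). Near Kcnj9, the neuronal transcription factor Nhlh1 was called at 0.43 by one probe (adjusted p = 0.0425) and gave 0.01 by the other. The second Sstr1 probe was called under all 17 alternatives in which it was tested (-2.15 to -1.05), and the called Pigp probe under all 18 (0.40 to 0.60), while the brighter probe of each gene was called under none.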
